A study of Danio rerio with 18 samples.

Results

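The subunits of the transcription factor NF-kB and the proteins that hold it in check were followed across livers of uhrf1 mutant and control zebrafish larvae, with and without palbociclib. The 9 genes were taken by symbol from the 32105 gene IDs of the count tables: the 5 NF-kB and Rel subunit genes nfkb1, nfkb2, rela, relb and rel, and the 4 inhibitor genes nfkbiaa, nfkbiab, nfkbie and tnfaip3. Each symbol matched 1 gene ID. All 9 genes had counts in every one of the 18 libraries, and all 9 passed the filter on low counts. The larvae were offspring of parents heterozygous for hi272, an insertion allele of uhrf1, in the strain ABNYU, and all of them carried a transgene, fabp10a:CAAX-EGFP, that marks hepatocytes with a membrane-bound fluorescent protein. They were kept from 48 h to 120 h after fertilization in 0.5% DMSO, alone or with 20 µM palbociclib, an inhibitor of the cell cycle kinases CDK4 and CDK6. Livers were dissected one by one, sorted by the genotype of the carcass and pooled, so each library is a pool of livers of 1 genotype label and not a single animal. There were 4 libraries labelled control and 5 labelled mutant in DMSO, and 4 labelled control and 5 labelled mutant in palbociclib. The mutation is carried by the whole animal, not by the liver alone.

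NF-kB is a dimer of Rel proteins that waits in the cytoplasm bound to an IkB inhibitor. Signals from cytokine and Toll-like receptors lead to phosphorylation and destruction of the IkB protein, and the freed dimer enters the nucleus and switches on inflammatory genes. A second, slower branch processes the nfkb2 precursor p100 to p52, which acts with RelB. Among the genes that NF-kB switches on in mammals are those of its own inhibitors, IkB-alpha and A20, and of p100 and RelB, so their transcripts are widely used as readouts of the pathway. Counts of RNA do not show how much of each protein is in the nucleus. In the liver, hepatocytes and resident immune cells both use this pathway.

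Total counts per library ranged from 2467926 to 5199301. Levels are given as CPM, read counts brought to a common library size with TMM factors, which correct for differences in library composition, and a gene is called changed where the adjusted p is under 0.05 over all 17048 genes tested with edgeR's quasi-likelihood test. CPM are not divided by transcript length, so levels of different genes are not compared with each other. The level of uhrf1 itself was 37.8 ± 7.5 CPM in the 4 control libraries in DMSO and 46.5 ± 7.55 CPM in the 5 mutant ones (SD), which does not separate the genotypes, so libraries are named by their labels and directions rest on those labels. The livers also held muscle and skin RNA. Hepatocyte markers took 6.55% to 8.17% of the counts in control and 3.04% to 4.48% in mutant libraries in DMSO, and 3.75% to 6.84% and 4.22% to 5.76% in palbociclib. In a bulk sample, fewer cells of a type and less RNA per cell cannot be told apart.

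In DMSO, 2 of the 5 subunit genes rose in the livers labelled mutant, nfkb2 and relb, the pair that makes up the p52 and RelB dimer of the slower branch. For nfkb2, which encodes p100, the 4 control libraries were at 14.3, 17, 13.7 and 14 CPM and the 5 mutant libraries at 98.1, 86.1, 55.2, 64 and 62.4 CPM. Every mutant library was above every control library, and the lowest of them, replicate 3, was far above the highest control, replicate 2. The change was 4.95-fold (log2 fold change 2.31, SE 0.193, adjusted p = 2.73e-11). relb, whose product pairs with p52, was at 15.7, 7.28, 6.72 and 10.4 CPM in control and at 41.7, 24.4, 15.2, 15.9 and 19.2 CPM in mutant libraries, a 2.31-fold rise (log2 fold change 1.21, SE 0.358, adjusted p = 0.0222). Here the groups met: control replicate 1, at 15.7 CPM, lay above mutant replicate 3, and mutant replicate 1 was far above the other mutant libraries. The relb call was lost without control replicate 2, 3 or 4 (adjusted p = 0.0677, 0.0893 and 0.0695).

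The other 3 subunit genes had higher means in mutant than in control libraries but were not called. nfkb1, the precursor of p50, was at 8.19, 11.2, 6.96 and 10.4 CPM in control and 18, 16, 14.6, 16.9 and 9.24 CPM in mutant libraries (log2 fold change 0.71, SE 0.283, adjusted p = 0.0785). Only mutant replicate 5 lay within the control range, and without that library nfkb1 passed the test (adjusted p = 0.043). rela, which encodes p65, the main activating subunit of the fast branch, was at 20.8, 11.2, 17.4 and 15.8 CPM in control and 27.6, 21.2, 20, 15.9 and 23.9 CPM in mutant libraries, with a log2 fold change of 0.41 (95% interval -0.0191 to 0.83, adjusted p = 0.204). rel, the gene of c-Rel, a subunit best known from lymphocytes, was at 6.79, 5.1, 6.22 and 4.42 CPM in control and 12.4, 9.31, 5.68, 7.44 and 5 CPM in mutant libraries (log2 fold change 0.50, 95% interval -0.16 to 1.17, adjusted p = 0.336). For rela and rel the groups overlapped.

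All 4 inhibitor genes rose in the mutant livers in DMSO. nfkbiaa, 1 of the 2 zebrafish copies of IkB-alpha, was at 5.62, 6.07, 6.22 and 3.38 CPM in control and 29.6, 25.9, 20.3, 16.9 and 15 CPM in mutant libraries. It rose 4.03-fold (log2 fold change 2.01, SE 0.276, adjusted p = 5.66e-07), with no overlap between the groups. nfkbiab, the other copy, was at 41.7, 34.7, 38.8 and 55.1 CPM in control and 171, 126, 88.2, 88 and 97.4 CPM in mutant libraries, 2.68-fold higher (log2 fold change 1.42, SE 0.192, adjusted p = 1.2e-05) and again without overlap. tnfaip3 encodes A20, an enzyme that edits ubiquitin chains and shuts down signalling from TNF and Toll-like receptors. It was at 9.6, 13.3, 8.46 and 5.97 CPM in control and 48.8, 44.5, 17.6, 32 and 37.3 CPM in mutant libraries, 3.83-fold higher (log2 fold change 1.94, SE 0.34, adjusted p = 0.000289), and its lowest mutant library, replicate 3, was still above the highest control library. nfkbie, the gene of IkB-epsilon, was at 6.55, 7.77, 8.71 and 5.97 CPM in control and 18.6, 17.8, 16.5, 7.44 and 10.8 CPM in mutant libraries (1.96-fold, log2 fold change 0.97, SE 0.291, adjusted p = 0.0151). For nfkbie mutant replicate 4 fell inside the control range, and the call was lost without control replicate 4 (adjusted p = 0.0578).

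Counted over the panel, 6 of 9 genes rose, 0 fell and 3 were not called in this comparison, where 6.72% of all genes tested rose. The panel and the pathway lists below were chosen with earlier results of these data known. Shares over all genes are therefore given for scale here and below, not as a test. In 4 of 9 genes every mutant library was above every control library, which 5.83% of all genes showed. The median log2 fold change was 1.21 over the panel, 0.71 over the subunits and 1.68 over the inhibitors, beside 0.0595 over all genes. When scaled by library size alone all 9 were called, but so were 27.5% of all genes as higher and 6.02% as lower, against 6.72% and 10.4% with TMM factors, and the median of all genes moved to 0.42; nfkb1, rela and rel then stood at 1.06, 0.77 and 0.85.

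**Figure D1:**
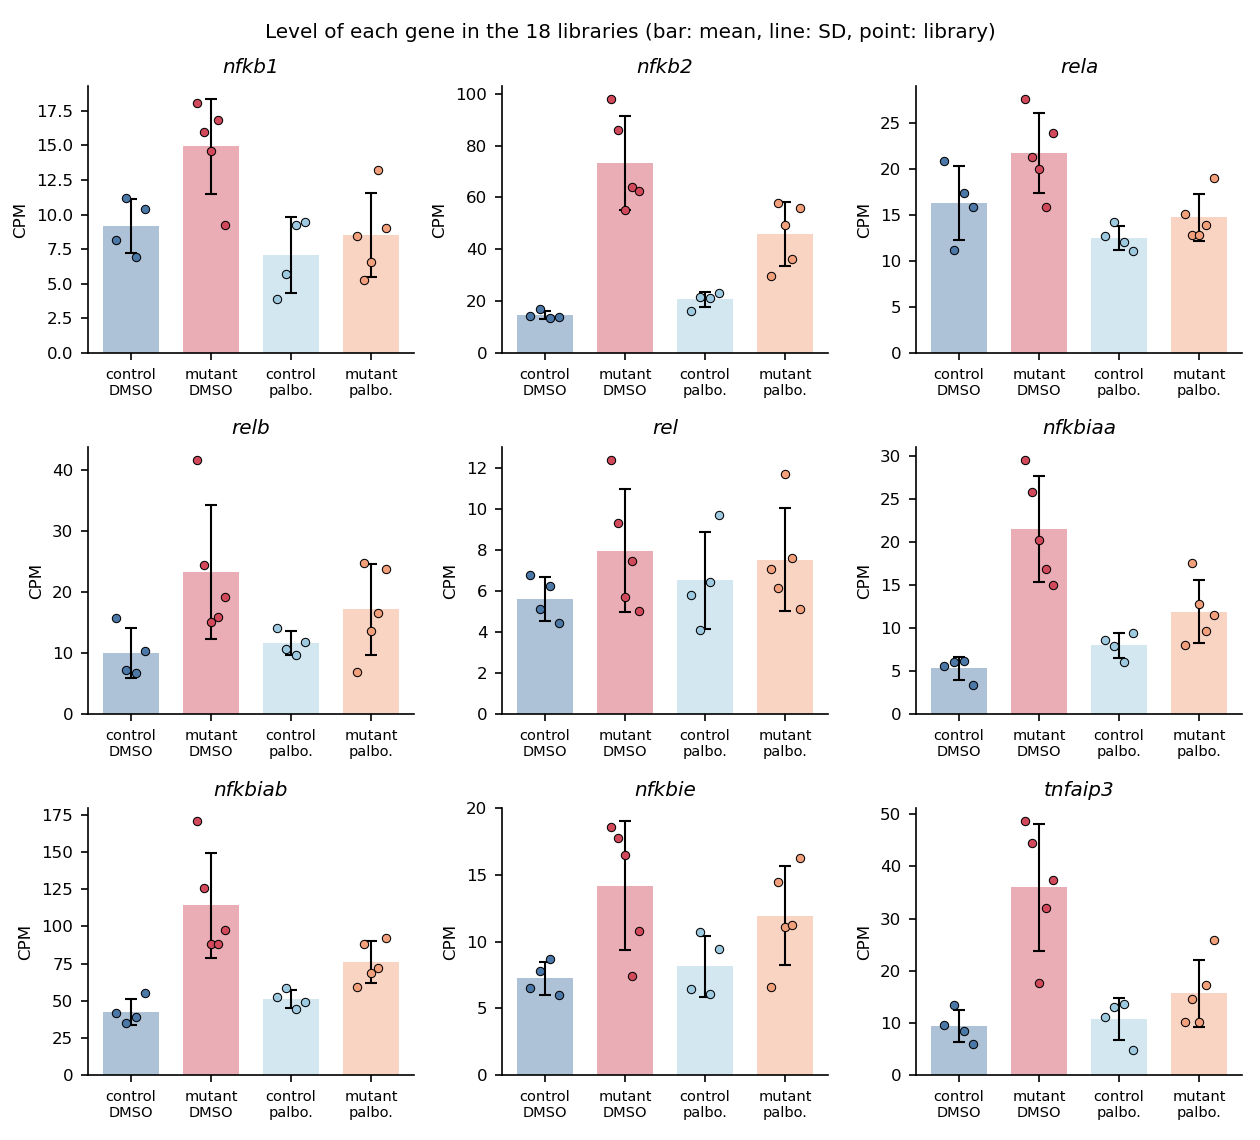
CPM (vertical axes, linear from 0) of the 9 genes in the 18 libraries, by group, where palbo. stands for palbociclib; bars are group means, lines the SD and points single libraries. In DMSO the mutant libraries of nfkb2, at 55.2 to 98.1 CPM, stand clear of the control libraries at 13.7 to 17 CPM, while those of rel overlap.

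The makeup of the panel also differed, which can be read from ratios of counts within a library, where library scaling cancels out. Counts of nfkb2 per count of rela were 0.687 to 1.52 in control and 2.6 to 4.03 in mutant libraries in DMSO, so the mean ratio was 3.6-fold higher with no overlap. Against nfkb1, the other precursor, nfkb2 was 3-fold higher, again without overlap (1.35 to 1.95 against 3.75 to 6.63). The ratio of relb to rela was 1.7-fold higher, with ranges of 0.39 to 0.754 and 0.758 to 1.51 that nearly touched. For rel against rela the mean log2 ratio was -1.50 ± 0.294 in control and -1.48 ± 0.499 in mutant libraries (SD, n = 4 and 5).

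Both IkB-alpha copies stood higher against rela in the mutant libraries. nfkbiaa per rela ranged over 0.22 to 0.548 in control and 0.632 to 1.22 in mutant libraries, and nfkbiab per rela over 1.99 to 3.46 and 4.06 to 6.17, in each case without overlap. Against nfkb2, on the other hand, nfkbiab was lower in mutants: 2.04 to 3.9 in control and 1.38 to 1.74 in mutant libraries, a mean ratio 0.543 times that of controls. In palbociclib that ratio was 2.061 to 3.209 in control and 1.386 to 1.995 in mutant libraries, also without overlap. The ratio between the copies, nfkbiaa to nfkbiab, was 1.51-fold higher in mutants on average, but the groups overlapped (0.0635 to 0.178 in control and 0.156 to 0.231 in mutant libraries). Control replicate 4 had the lowest nfkbiaa and the highest nfkbiab of its group and so the lowest ratio, while control replicates 2 and 3 lay above the lowest mutant ratio. For tnfaip3 and nfkbie per rela the groups overlapped in DMSO. The ratio for tnfaip3 ranged over 0.382 to 1.19 in control and 0.879 to 2.09 in mutant libraries. For nfkbie it ranged over 0.318 to 0.699 and 0.456 to 0.837. Ratios are descriptions of these libraries and were not tested.

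**Figure D2:**
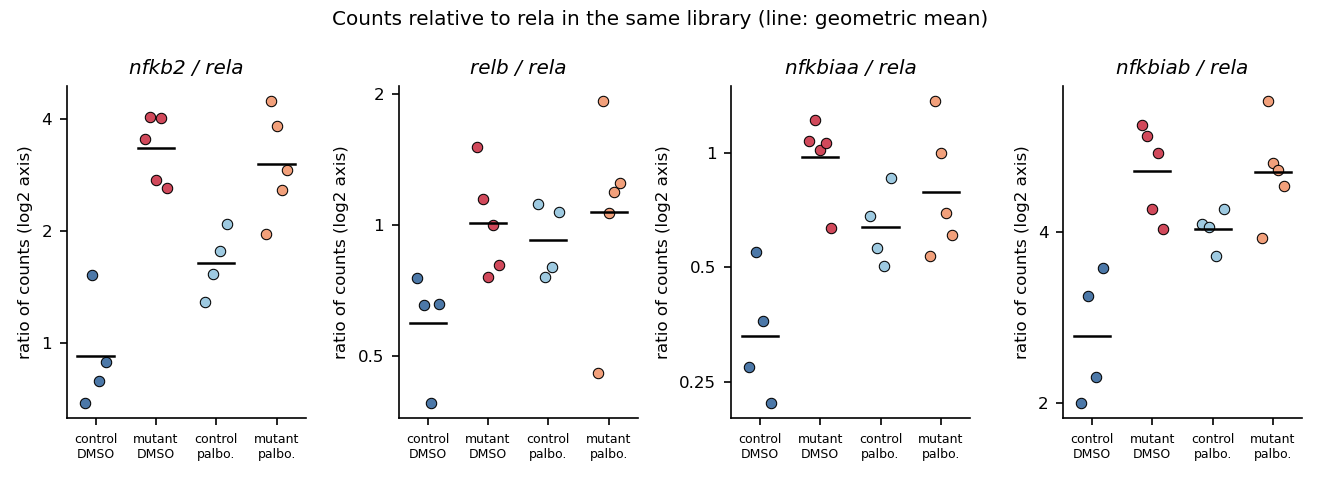
Ratio of the counts of nfkb2, relb, nfkbiaa and nfkbiab to the count of rela in the same library (vertical axes, log2 scale), by group; points are libraries and lines geometric means. In DMSO the mutant and control libraries do not overlap in any of the 4 ratios shown, while in palbociclib they overlap in all 4. The ratios of rel, tnfaip3 and nfkbie to rela, not shown, overlap in DMSO. Control libraries in palbociclib lie above control libraries in DMSO without overlap for relb and nfkbiab.

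Under palbociclib the same direction was seen in every gene of the panel, but only nfkb2 was called. It was at 16.3, 21.8, 21.4 and 23.2 CPM in the 4 control libraries (replicates 1, 2, 4 and 5) and at 29.6, 57.7, 49.3, 36.1 and 55.9 CPM in the 5 mutant libraries, 2.21-fold higher (log2 fold change 1.15, SE 0.187, adjusted p = 0.000299). Mutant replicate 1 was the lowest of its group and still above every control library. nfkbiab was at 52.6, 58.4, 44.1 and 49.1 CPM in control and 59, 88.1, 68.4, 72.3 and 92.4 CPM in mutant libraries, also without overlap, though by a margin of less than 1 CPM, and was not called (log2 fold change 0.57, SE 0.189, adjusted p = 0.206). Thus 1 of 9 rose and 0 fell, where 0.634% of all genes rose, and 2 of 9 had every mutant above every control library, where 1.91% of all genes did. nfkbiab was called in several alternative fits: with scaling by library size alone (adjusted p = 0.0105), with only the groups compared (adjusted p = 0.0191), with the muscle share as a covariate (adjusted p = 1.48e-05) and without DMSO mutant replicate 1 (adjusted p = 0.0396). Of all genes, 1.13%, 0.557% and 1.74% were called higher with the scaling, the compared groups and the covariate. Without that library 112 of 16952 were.

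The remaining inhibitors stood close to one another in this comparison. nfkbiaa was at 8.6, 7.89, 6.04 and 9.45 CPM in control and 7.98, 17.6, 12.8, 9.62 and 11.5 CPM in mutant libraries (log2 fold change 0.57, 95% interval 0.0316 to 1.12, adjusted p = 0.475). tnfaip3 was at 11.2, 12.9, 13.7 and 4.86 and 10.3, 14.5, 10.2, 17.2 and 26 CPM (log2 fold change 0.53, 95% interval -0.19 to 1.25, adjusted p = 0.719), and nfkbie at 6.45, 10.7, 6.04 and 9.45 and 6.61, 14.5, 11.11, 11.3 and 16.3 CPM (log2 fold change 0.56, adjusted p = 0.556). In all 3 the groups overlapped. Of the other subunits, relb was at 14.2, 10.7, 9.67 and 11.9 CPM in control and 6.84, 24.8, 13.7, 16.6 and 23.9 CPM in mutant libraries (log2 fold change 0.55, adjusted p = 0.721), with mutant replicate 1 below all 4 control libraries. nfkb1, rela and rel had log2 fold changes of 0.26, 0.24 and 0.20 and adjusted p of 0.902, 0.849 and 0.944. The median over the panel was 0.55, beside 0.0271 over all genes.

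Whether the mutant effect itself was smaller under palbociclib was asked with the interaction, which compares the 2 mutant effects, estimated on separate libraries. The interaction uses the DMSO libraries of the first comparison again, so a high DMSO estimate enters both results. It was called for 2 of 9 genes, both with a smaller mutant effect in palbociclib, where 0.252% of all genes were called in that direction. For nfkb2 the log2 fold change fell from 2.31 in DMSO to 1.15 in palbociclib, 49.6% of its size (interaction log2 difference -1.16, SE 0.264, adjusted p = 0.0115). For nfkbiaa it fell from 2.01 to 0.57, or 28.6% (interaction -1.44, SE 0.383, adjusted p = 0.0367). For tnfaip3 the value in palbociclib was 27.4% of that in DMSO, with an interaction of -1.41 (SE 0.48), and for nfkbiab 40.4%, with -0.85 (SE 0.265); neither was called (adjusted p = 0.159 and 0.11), but DESeq2 called both (adjusted p = 0.0454 and 0.0413), as did scaling by library size alone (adjusted p = 0.0321 and 0.00193), and the muscle covariate called nfkbiab (adjusted p = 1.14e-06). The other 5 interactions were between -0.66 and -0.17, all below 0 and none called.

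The nfkb2 interaction was called without any single library (highest adjusted p = 0.0394 over 18 fits). The nfkbiaa interaction was close to the threshold: it was called in 8 of those 18 fits and was lost without DMSO control replicate 1, 3 or 4, DMSO mutant replicate 1 or 2, palbociclib control replicate 1 or 5, or palbociclib mutant replicate 1, 4 or 5, with log2 differences of -1.62 to -1.27 and adjusted p of up to 0.114. The tnfaip3 interaction passed without DMSO mutant replicate 3 or palbociclib mutant replicate 5 (adjusted p = 0.0465 and 0.0484).

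**Figure D3:**
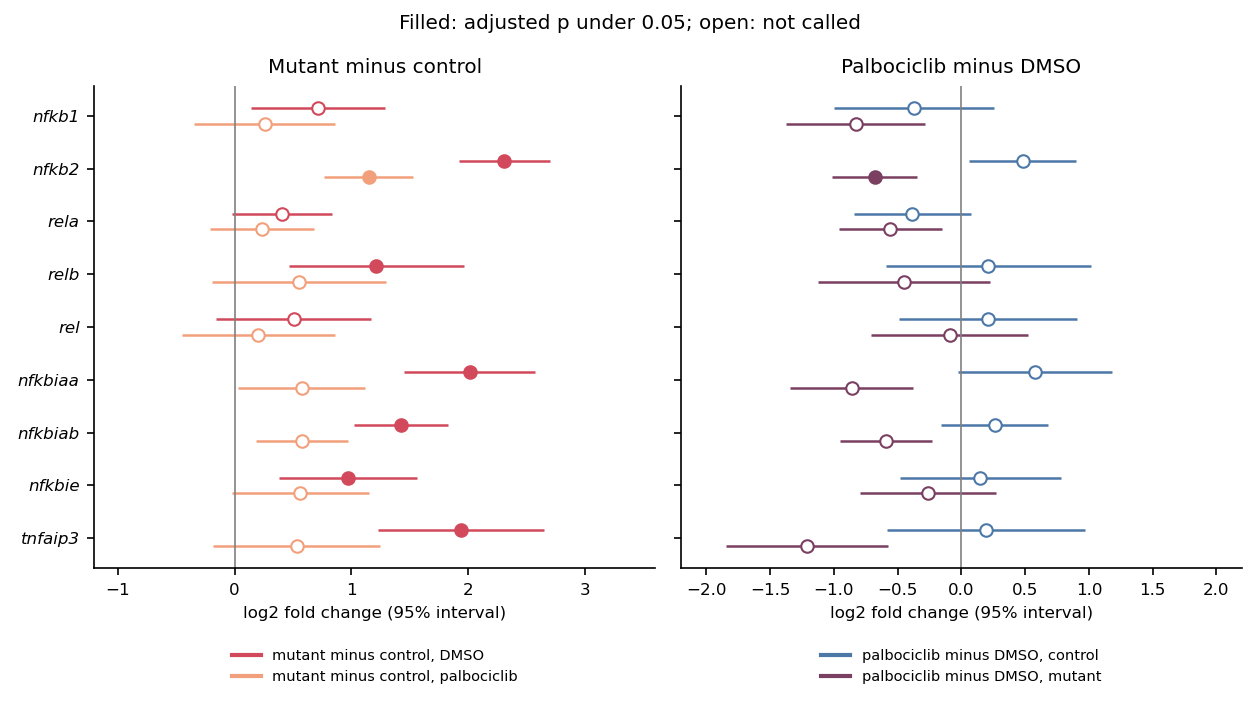
Log2 fold changes (horizontal axes) of the 9 genes with 95% intervals from the quasi-likelihood fit; the left panel gives mutant minus control in each treatment and the right panel palbociclib minus DMSO in each genotype label. Filled points are called at an adjusted p under 0.05, which holds for 6 genes in DMSO and for nfkb2 alone in palbociclib.

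Palbociclib was next compared with DMSO within each genotype label, starting with the mutant livers. All 9 genes had lower means in palbociclib than in DMSO there, but only nfkb2 fell by the test, from 73.2 ± 18.1 to 45.7 ± 12.3 CPM (SD, n = 5 and 5; log2 fold change -0.68, SE 0.164, adjusted p = 0.0405), so 1 of 9 was called where 0.499% of all genes fell. The 2 groups of nfkb2 values overlapped, with DMSO mutant replicate 3 below palbociclib mutant replicates 2 and 5. The call was lost with the replicate block (adjusted p = 0.0595), with DESeq2 (adjusted p = 0.0605), with only the groups compared (adjusted p = 0.197), and without any of 8 single libraries: DMSO control replicate 1 or 3, DMSO mutant replicate 1 or 2, palbociclib control replicate 4, or palbociclib mutant replicate 1, 3 or 4 (adjusted p of up to 0.244). tnfaip3 was at 36 ± 12.2 CPM in DMSO and 15.6 ± 6.49 CPM in palbociclib (log2 fold change -1.21, SE 0.304, adjusted p = 0.0897), and nfkbiaa at 21.5 ± 6.12 and 11.9 ± 3.66 CPM (log2 fold change -0.86, SE 0.239, adjusted p = 0.0952). DESeq2 called tnfaip3 (adjusted p = 0.0123), and the fit with only the groups compared called nfkbiaa (adjusted p = 0.0452). tnfaip3 also passed without DMSO mutant replicate 3 or palbociclib mutant or control replicate 5 (adjusted p = 0.00865, 0.0157 and 0.0221), and nfkbiaa without palbociclib mutant replicate 2 (adjusted p = 0.0396). Values for nfkb1, nfkbiab and rela were -0.83, -0.59 and -0.56 on the log2 scale, with unadjusted p of 0.00382, 0.00273 and 0.00868 and adjusted p of 0.225, 0.185 and 0.326. nfkbiab was called lower by library size alone (adjusted p = 0.0335), with the muscle covariate (adjusted p = 0.00425) and scaled to hepatocyte genes (adjusted p = 0.00587), where 0.616%, 0.856% and 2.63% of all genes were called lower; tnfaip3 was called under the same settings (adjusted p = 0.0192, 0.036 and 0.00075). Hepatocyte scaling, which moved the median of all genes to -0.46, also called nfkb1, rela and nfkbiaa (adjusted p = 0.0489, 0.0334 and 0.0111). The log2 fold changes of relb, nfkbie and rel were -0.45, -0.26 and -0.0901 (adjusted p = 0.764, 0.863 and 0.972). This comparison shares the mutant DMSO libraries with the first one, so a library that is high there enters both.

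In control livers palbociclib changed none of the 9 genes by edgeR's test (0 of 9 called, where 5.71% of all genes were called in either direction; 1 had an unadjusted p under 0.05, and DESeq2 called 0). The values lay on both sides of 0. nfkb2 was at 14.8 ± 1.52 CPM in DMSO and 20.7 ± 3.01 CPM in palbociclib (SD, n = 4 and 4; log2 fold change 0.48, SE 0.207, adjusted p = 0.171), and nfkbiaa at 5.32 ± 1.32 and 8 ± 1.45 CPM (log2 fold change 0.57, SE 0.3, adjusted p = 0.274). rela was at 16.3 ± 4.01 and 12.5 ± 1.31 CPM (log2 fold change -0.39, adjusted p = 0.346) and nfkb1 at 9.18 ± 1.94 and 7.07 ± 2.75 CPM (log2 fold change -0.37, adjusted p = 0.542). relb, rel, nfkbiab, nfkbie and tnfaip3 were between 0.15 and 0.26. Within a library, nfkbiab per rela was 1.99 to 3.46 in DMSO and 3.63 to 4.4 in palbociclib control libraries, without overlap, and so were relb per rela (0.39 to 0.754 and 0.758 to 1.12) and nfkb2 per nfkb1 (1.35 to 1.95 and 2.29 to 4.13). In every other ratio formed, among them nfkb2, rel, nfkbiaa, nfkbie and tnfaip3 per rela, the 2 groups overlapped. The share of all gene pairs without overlap was not counted. The directions of nfkb1 and rela turned when libraries were scaled to hepatocyte genes (0.50 and 0.44), and with the muscle share as a covariate rela was at 0.0178. The absence of calls also depended on the scaling. Scaled to hepatocyte genes, 7 of the 9 were called higher, all but nfkb1 and rela, with nfkb2 at 1.31 and nfkbiaa at 1.38, where 42.4% of all genes were called higher and the median of all genes was 0.80. With the muscle covariate nfkbiab was called higher (0.84, adjusted p = 0.00161), where 0.188% of all genes were, and by library size alone nfkb2 and nfkbiab were (0.74 and 0.53, adjusted p = 0.0266 and 0.0406), where 6.33% of all genes were.

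Put in order of mean level, 7 of the 9 genes, all but nfkb1 and rela, ran from mutant in DMSO through mutant in palbociclib and control in palbociclib to control in DMSO. Between neighbours in that order the libraries overlapped, except that nfkb2 and nfkbiab had every palbociclib mutant library above every palbociclib control library. nfkb1 and rela ran from mutant in DMSO through control in DMSO and mutant in palbociclib to control in palbociclib, with overlap at every step. These orders restate the means compared above, and the share of all genes in either order was not counted.

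Within the mutant DMSO group, replicate 1 was above the group mean of log2 CPM in 9 of 9 genes and replicate 2 in 8, while replicates 3, 4 and 5 were above it in 2, 1 and 2. Without replicate 1, the same count of 6 of 9 was called in DMSO, with log2 fold changes of 2.18 for nfkb2, 1.87 for nfkbiaa and 0.89 for relb. That fit called 1081 of 16952 genes higher. Replicates 1 and 2 also had the highest summed leukocyte markers of the group, 320 and 276 CPM against 208, 218 and 235. They had the largest hepatocyte share (4.48% and 4.12% against 3.04% to 3.56%) and the smallest muscle share (3.89% and 4.38% against 5.02% to 5.57%). In palbociclib, mutant replicate 1 was the low library, with a mean deviation of -0.41 on the log2 scale over the 9 genes, and replicate 5 the high one, at 0.29. There replicate 1 had the largest muscle share of its group, 5.41%, and replicate 5 the smallest, 4.57%. Their leukocyte sums were 185 and 199 CPM, while the highest was in replicate 2, at 224 CPM. Their hepatocyte shares were 4.49% and 5.76%. Whether these shares bear on the panel was not tested.

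Markers of immune cells were measured beside the panel, since leukocytes also express these genes. The leukocyte list summed to 138 to 192 CPM in control and 208 to 320 CPM in mutant libraries in DMSO, and to 139 to 182 and 170 to 224 CPM in palbociclib. A macrophage marker, mfap4, and the lysozyme gene lygl1 were far apart in DMSO: 1 of the gene IDs of mfap4 had 850 summed counts in the mutant and 75 in the control libraries, and lygl1 had 570 and 64. Near-identical copies of mfap4 may share reads. Both mfap4 and lygl1 enter the leukocyte sum. The myeloid markers cd68, csf1ra and lyz, also on the list, were not called in DMSO. Their log2 fold changes were -0.16, 0.17 and 0.19 (adjusted p = 0.68, 0.768 and 0.578). Of 34 gene IDs on the list, 16 were tested, with a median log2 fold change of 0.43 in DMSO. There 4 of them rose and 1 fell, where 6.72% of all genes rose and 10.4% fell. Named after their values were seen, those that rose were mfap4 (log2 fold change 3.41), lygl1 (3.04), the collagenase mmp13a (3.58) and NCF1 of the phagocyte oxidase (2.78), and the myeloid transcription factor spi1a fell (-1.33). Summed counts of mmp13a were 166 in mutant DMSO libraries and 13 to 46 in the other groups, and those of NCF1 were 55 and 7 to 28. Both may have passed the filter on low counts mainly through the mutant DMSO libraries. Their rise then adds little to the count. The defining pan-leukocyte markers were not called: ptprc (CD45) was at 1.66 ± 0.372 CPM in control and 3.55 ± 1.45 in mutant libraries (adjusted p = 0.191), coro1a at 8.09 and 10.4 (adjusted p = 0.467) and lcp1 at 9.28 and 11.6 (adjusted p = 0.419). The T cell marker cd8a had no count in any library, and the B cell marker cd79a and cd4-1 of T cells had none in DMSO control libraries, where 10 of the 34 gene IDs were at 0 (in DMSO mutant libraries 4). Muscle markers took 2.49% to 4.26% of the counts in control and 3.89% to 5.57% in mutant libraries in DMSO. Skin markers took 0.43% to 0.748% and 0.654% to 0.949%. Summed bile duct and endothelial markers took 0.137% to 0.154% and 0.216% to 0.263%, but gene by gene they did not rise as a whole. Of 16 tested, 3 rose and 6 fell in DMSO, with a median log2 fold change of -0.27, where 6.72% of all genes rose and 10.4% fell. With the muscle share as a covariate 6 of 9 genes of the panel were called in DMSO, nfkb2 at a log2 fold change of 2.61. That fit called 3.93% of all genes higher. The muscle share itself differed between the groups, so this fit cannot separate it from genotype and treatment. The part of leukocyte number in the levels of the panel was not tested.

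Upstream of NF-kB, a minority of the pathway's genes moved in the mutant livers in DMSO. Of 27 matched ligand and receptor genes only 8 had enough counts to test, and 2 of these rose and 0 fell (median log2 fold change 0.79), where 6.72% of all genes rose and 10.4% fell. They were cd40, a receptor of B cells and dendritic cells that signals to both branches, and the TNF receptor tnfrsf1a. cd40 was at 0.486 ± 0.181 CPM in control and 14.1 ± 6.26 CPM in mutant libraries (SD, n = 4 and 5; log2 fold change 4.74, SE 0.573, adjusted p = 1.25e-07), and was also called in palbociclib (2.41, adjusted p = 0.00581). With 26 to 75 counts per mutant and 1 to 3 per control library in DMSO, cd40 may have passed the filter on low counts mainly through mutant libraries. Its rise then adds little to the count. tnfrsf1a was at 9.79 ± 0.347 and 27.8 ± 8.61 CPM (log2 fold change 1.50, adjusted p = 3.02e-06) but not called in palbociclib (0.40, adjusted p = 0.631). tnfrsf11a, the receptor RANK, and the fish Toll-like receptor tlr22 had values of 0.88 (adjusted p = 0.0504) and 1.34 (adjusted p = 0.145).

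Of 28 kinases and adaptors tested, 5 rose and 1 fell, where 6.72% and 10.4% of all genes did (median 0.35, beside 0.0595 over all genes). Those that rose included traf2b (11.2 ± 3.17 against 35.5 ± 7.56 CPM, log2 fold change 1.66, adjusted p = 4.19e-07) and traf3 (1.80, adjusted p = 5.03e-05), adaptors that hold the kinase NIK at a low level in mammals. They also included map3k14a, a gene of NIK itself, which starts p100 processing (9.09 ± 1.59 against 19.3 ± 2.12 CPM, log2 fold change 1.09, adjusted p = 0.00325), and MYD88, the adaptor of most Toll-like receptors (1.53, adjusted p = 0.000221). The fifth that rose was BIRC2, a ubiquitin ligase of the TRAF complex (0.48, adjusted p = 0.0185), and the single one that fell was ticam1, the adaptor of the double-stranded RNA receptor (-1.39, adjusted p = 0.026); both are named after their values were seen. In palbociclib 1 of 28 rose, traf2b (1.04, adjusted p = 0.0143), where 0.634% of all genes did. In mutant livers 3 of these genes were called lower in palbociclib than in DMSO, where 0.499% of all genes were: traf2b (-1.09, adjusted p = 0.00333), traf3 (-1.22, adjusted p = 0.0353) and MYD88 (-1.17, adjusted p = 0.0353).

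Of 19 other negative regulators and IkB-like genes tested, 5 rose and 0 fell in DMSO, where 6.72% and 10.4% of all genes did (median 0.11, beside 0.0595 over all genes). bcl3, an IkB-like nuclear partner of p50 and p52 dimers, was at 0.876 ± 0.636 CPM in control and 17.5 ± 6.61 CPM in mutant libraries (log2 fold change 4.28, SE 0.573, adjusted p = 3.8e-06), and was again called in palbociclib (2.41, adjusted p = 0.0337). TNIP1 and tnip2, whose products bind A20, rose with it: TNIP1 from 86.1 ± 11.6 to 157 ± 19.5 CPM (log2 fold change 0.86, adjusted p = 8.92e-08) and tnip2 by 2.18 (adjusted p = 0.00127). In mutant livers TNIP1 fell by 0.42 on the log2 scale in palbociclib (adjusted p = 0.0335). IRAK3, an inhibitor of Toll-like receptor signalling, had 70 counts over the 5 mutant libraries and 1 over the 4 control libraries in DMSO, a ratio of 65.7 per unit of scaled library size (exact 95% interval 11.4 to 2630, counting error only). Its counts in palbociclib were 11 in mutant and 16 in control libraries, of which 12 came from 1 library. The fifth that rose, tank, an adaptor of TRAF proteins, is named after its value was seen (2.43, adjusted p = 0.00154). In DMSO bcl3 had 24 to 85 counts per mutant and 2 to 7 per control library. Both bcl3 and IRAK3 may have passed the filter on low counts mainly through mutant libraries. Their rise then adds little to the count.

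Of 24 tested genes known as NF-kB targets in mammals or fish, 12 rose, 3 fell and 9 were not called in DMSO, where 6.72% of all genes rose and 10.4% fell, so the share of the list that fell was close to that of all genes (median 1.47, beside 0.0595 over all genes). cd83, a surface protein of activated antigen-presenting cells, had 437 counts in the mutant and 2 in the control libraries, a ratio of 205 per unit of scaled library size (exact 95% interval 56.4 to 1698). The plasminogen activator gene plaua had 117 against 1, a ratio of 110 (exact 95% interval 19.3 to 4371). Only 24 of 40 matched targets passed the filter on low counts, which a gene can pass on 1 group alone. plaua, 1 of the 12 that rose, had 12 to 32 counts per mutant DMSO library and 0 to 4 in the other groups. Once kept, it could hardly come out other than higher. IRAK3, with 5 to 23 against 0 to 1 counts per library in DMSO, was in a like position. So was cd83, with 48 to 118 against 0 to 2 in DMSO and 29 to 46 against 0 to 11 in palbociclib. The target ccl19a.1, with 223 to 591 against 3 to 12 in DMSO, may also have passed mainly on the mutant libraries. The target mmp13a, which also rose, had 166 summed counts in mutant DMSO libraries and 13 to 46 in the other groups. It may have passed mainly on the mutant DMSO libraries too. The chemokine ccl19a.1, with 47.4 ± 21.4 CPM in mutant and 2.21 ± 0.904 CPM in control libraries in palbociclib (SD, n = 5 and 4), was 1 of 2 targets of 24 called there, where 0.634% of all genes rose (log2 fold change 4.41, adjusted p = 0.000332). The other was cd83, with 195 against 16 counts (log2 fold change 3.48, adjusted p = 8.3e-06). plaua had 11 counts in the mutant libraries in palbociclib, 0.0914 times its scaled level in mutant livers in DMSO (exact 95% interval 0.0444 to 0.17, counting error only; adjusted p = 0.00147). Of the targets that fell, stat5a, a signal transducer of growth hormone and cytokines, was at 20.7 ± 3.76 CPM in mutant and 74.7 ± 13 CPM in control libraries in DMSO (log2 fold change -1.85, adjusted p = 2.25e-10). It also fell in control livers given palbociclib (-1.08, adjusted p = 0.00028). The other targets that fell in mutants, named after their values were seen, were the adhesion gene vcam1b (-1.21) and SOD2, the mitochondrial superoxide dismutase (-0.72). Several targets on this list are also leukocyte products, and mmp13a stands on both lists.

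**Figure D4:**
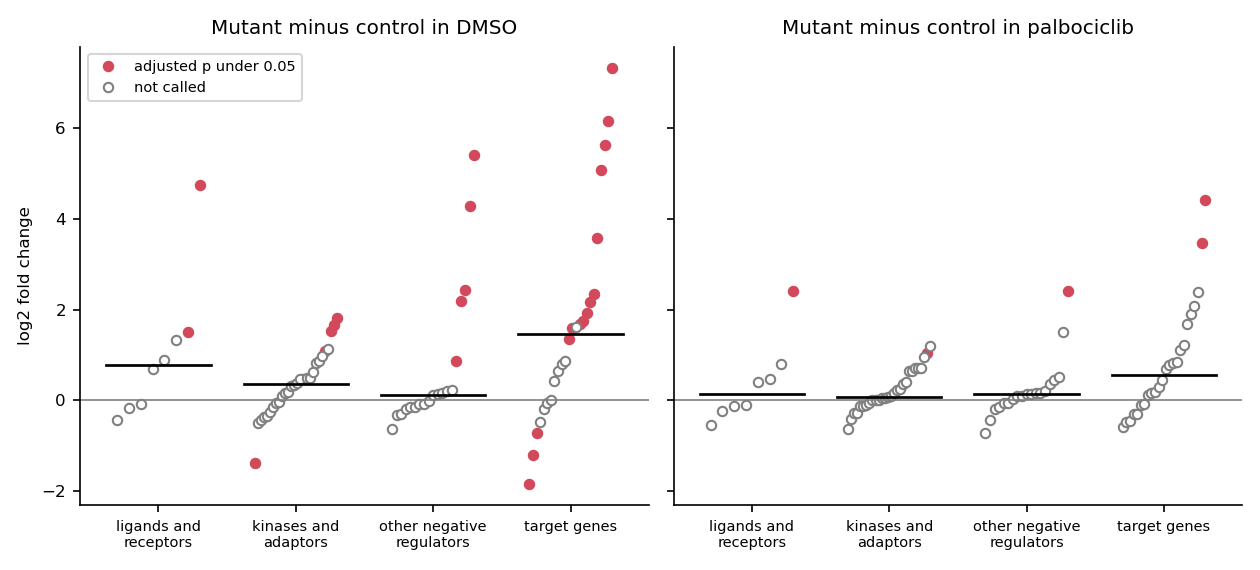
Log2 fold change of mutant minus control (vertical axis) for each tested gene of the 4 pathway lists, sorted by value within a list, in DMSO (left) and palbociclib (right); red points are called, open points are not, and lines are list medians. In DMSO 12 of 24 targets are called higher, and in palbociclib 2; fitted values of genes with few control counts (cd83, plaua, IRAK3) depend on the prior count of the fit.

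Genes with the most similar pattern were sought for each of the 6 genes that rose in DMSO, as those whose log2 CPM, centred on its mean over the 18 libraries, differed least from the gene's own (root mean square difference in log2 units, over 12701 candidate genes). Nearest to nfkb2, which spanned 2.79 log2 units, were irf1b (0.332), a transcription factor of the interferon response, FMNL3 (0.343) and NFE2L1 (0.364). irf1b is also on the target list above and rose in mutants in DMSO (log2 fold change 2.17). Nearest to nfkbiaa were SERPINB1 (0.292), tnfrsf1a (0.294) and cldnb (0.331). Nearest to nfkbiab were krt18a.1 (0.208), a keratin of epithelia, KARS1 (0.219) and tnfrsf1a (0.22), so the TNF receptor tnfrsf1a stood among the nearest genes of both IkB-alpha copies. krt18a.1 is also on the list of bile duct and endothelial markers, with a log2 fold change of 1.16 in mutants in DMSO. tnfaip3 was nearest to PFKFB3 (0.358), an enzyme that stimulates glycolysis, FOSL2 (0.363), a subunit of AP-1, and NIPA2 (0.405). relb was nearest to krt18a.1 (0.345), stat2 (0.363) and MAPK14 (0.367), and nfkbie to shisa10.1 (0.275), CTSC (0.289) and CD63 (0.325). All 18 libraries and their 4 groups enter these distances, so a gene that shares the group differences comes out near.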

How the data were processed

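RNA was depleted of ribosomal RNA and sequenced in 18 libraries of pooled larval livers, per the labels' protocols. The authors deposited raw counts per Ensembl gene ID. The tools named are FastQC 0.11.5 and Trimmomatic 0.36, per the submitters' processing notes. Which aligner, counter, strand setting and build the authors used was not given in the sources used here, and overlapping genes may share reads. No library's counts were a copy of another's. Pools may share a clutch, on which the labels are silent; p-values then cover only the spread between pools, which may be technical.

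Symbols came from a reference table that names 26269 of 32105 IDs. edgeR 4.0.16 (R 4.3.3) was run on all 18 libraries with a mean per group: filterByExpr kept 17048 genes, TMM factors were 0.762 to 1.16, and the quasi-likelihood test was robust, with Benjamini-Hochberg adjustment over all genes tested and calls at 0.05. CPM were computed on TMM-scaled library sizes, and SEs from the test's F value. Within-library ratios used a pseudocount of 0.5. Alternatives were DESeq2 1.42.0, other scalings, no filter, a muscle covariate, a replicate block and leaving out each library. The muscle covariate differs between the groups, so calls of that fit, here and above, are not free of genotype and treatment. Members and lists were chosen with earlier results of these data known. Of each pathway list the 4 genes with the smallest adjusted p in DMSO are named. Simulated log2 changes of 0.5, 1 and 2 between mutant and control in DMSO were recovered for 4.76%, 41.4% and 92.5% of changed genes among 17048. Small changes were thus mostly missed in the simulation. It changed only 63, 70 and 67 genes, whereas 1145 were called higher and 1772 lower in the data. With fewer changed genes the adjustment is stricter, so these shares do not give the recovery in the data. Intervals on summed counts cover counting error only. No sequences are shown.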

Additional observations from a re-analysis of the deposited data

Results flagged for a closer look

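A difference between the mutant effects in the 2 treatments was found for nfkb2 and nfkbiaa. For nfkb2 the effect in palbociclib minus that in DMSO was -1.16 on the log2 scale (edgeR adjusted p = 0.0115), with all 5 mutant libraries above all 4 control libraries in both treatments. For nfkbiaa it was -1.44 (adjusted p = 0.0367), with all 5 mutant above all 4 control libraries in DMSO and overlap in palbociclib. No library stood apart from its group by Dixon's gap test in any of the 36 sets of values checked for the 9 genes. Chance gives about 1 such set in 20. With 4 or 5 values per set the test finds only large gaps in single genes. It does not see a library shifted moderately in many genes. Mutant DMSO replicate 1 was above its group mean in 9 of 9 genes.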

How the results depend on the processing

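In DMSO the count of 6 genes called higher in mutants was 9 when scaled by library size alone and 9 with scaling to hepatocyte genes, an alternative added after seeing the data, and 6 under each other fit on all libraries; with 1 library left out it was 4 to 7. Scaling to hepatocyte genes moved the median of all genes to 1.49, against which nfkb2 stood at 3.67. These scalings called 27.5% and 86.5% of all genes higher. Each other fit on all libraries called 3.93% to 5.78% higher. With 1 library left out, 768 to 1415 genes were called higher, of 16847 to 17498 tested. In palbociclib the count of 1 became 2 with library size alone, 2 with only the groups compared and 2 with the muscle covariate, and 1 to 2 with 1 library left out. Under those settings on all libraries 1.13%, 0.557% and 1.74% of all genes were called higher. Leaving out 1 library called 71 to 163 genes higher. For palbociclib in control livers the count of 0 became 2, 1 and 7 with library size alone, the muscle covariate and hepatocyte scaling, where 6.33%, 0.188% and 42.4% of all genes were called higher. In mutant livers the count of 1 became 3, 3 and 6 under the same (0.616%, 0.856% and 2.63% of all genes lower), and 0 with the replicate block. Leaving out 1 library gave 0 to 2, where 33 to 100 of all genes were called lower. The interaction count of 2 became 4 with library size alone, 4 with DESeq2, 3 with the muscle covariate and 9 with hepatocyte scaling, where 0.839%, 0.672%, 0.499% and 60.9% of all genes were called lower. It was 1 to 3 with 1 library left out, where 22 to 124 of all genes were called lower. The cause of these moves was not tested. The sign turned for rela (0.0178 with the muscle covariate, 0.44 with hepatocyte scaling) and nfkb1 (0.50) in control livers given palbociclib. With 1 library left out, values spanned 0 for rel (-0.0102 to 0.45 for mutant against control in palbociclib, -0.0313 to 0.36 and -0.30 to 0.13 for palbociclib in control and mutant livers) and nfkbie (-0.000981 to 0.28 in control livers). Of 306 gene values under other settings 258 kept their direction and call, as did 775 of 810 with 1 library left out. Same-numbered libraries did not deviate together over all genes (correlations of -0.19 to 0.0566 over 16 pairs). With so few libraries per group, this cannot exclude a clutch or batch shared by same-numbered libraries. With the replicate block the nfkb2 difference in mutant livers was -0.70 (edgeR adjusted p = 0.0595) and no other call of the 9 genes changed. Counts of 13 to 607 per gene and library limit the low genes nfkbiaa and rel most.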
